A study of Mus musculus with 12 samples.

Results

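The livers compared here had an open bile duct and differed in 1 gene by design. RNA from 3 sham-operated FSAP-/- mice was set against RNA from 3 sham-operated wild-type (WT) littermates, which is 6 of the 12 arrays of the study, chosen by the operation and genotype in their labels. The other 6 arrays held ligated livers of both genotypes. They entered the estimate of the spread, and also the choice of the genes tested and of each gene's probe. Wild types and knockouts alike came from heterozygous parents on the BalbC strain, after backcrossing that had reached generation F3, and were used at 20 to 30 weeks of age. A sham operation is the surgery without tying the common bile duct, and the liver was taken 2 weeks later and frozen whole. The knockout was in the germ line, so all cells carried it, 1 mouse was hybridised per array, and the labels give neither the sex of the mice nor the part of the gene that was removed. A frozen whole liver is a mixture of cells, so fewer cells of a type and less RNA per cell cannot be told apart in any value below.

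FSAP, the factor VII activating protease, is a serine protease that hepatocytes secrete into plasma, encoded by Habp2 (hyaluronan binding protein). It can activate factor VII and single-chain urokinase, cut fibrinogen, kininogen and PDGF-BB, and is held in check by serpins such as antithrombin and antiplasmin. The liver is both its source and, through bile duct ligation, the organ in which the study asked about fibrosis, and the sham comparison describes the knockout livers without the injury that dammed bile causes.

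Levels are log2 of the background-corrected probe signal minus the 75th percentile of the same array, so that a level of 0 is that percentile. They are compared within a probe and never between probes. Differences are FSAP-/- minus WT on that log2 scale, where 1 is 2-fold and 0.58 is 1.5-fold. Each comes with a 95% interval from limma's moderated fit over all 12 arrays. An interval that lies wholly within 2-fold is called bounded, and each interval is for 1 gene with no adjustment for the number of genes. A gene was called where its p, adjusted over all 19531 genes by the Benjamini-Hochberg method, was under 0.05.

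FSAP-/- sham 1 stood apart from the other 5 sham arrays. It alone had signal from the Y-linked genes Ddx3y (1.54, against -7.01 to -6.59 on the other sham arrays) and Eif2s3y (2.14, against -6.83 to -6.59). It alone lacked Xist, the RNA that coats the inactive X chromosome, at -7.52 and not well above background, against -1.15 to 0.07 on the others. This array was also alone on its slide, was scanned on a later day and was read with a layout lacking gene names, which were taken by probe from the other arrays. The 3 WT sham arrays shared 1 slide, and FSAP-/- sham 2 and 3 lay on a slide each with ligated livers, so genotype and slide cannot be told apart. A fit with slide as a fixed block reaches the comparison through FSAP-/- sham 2, the 2 ligated WT livers on its slide and the 1 ligated WT liver on the slide of the WT sham arrays. It bounded 3741 genes in place of 14214 and turned the sign of 13 of the named genes that differed 2-fold or more, among them Cd74 (0.29), Itgam (0.05) and Cyp7b1 (-0.53). Pearson's r over the genes tested ranged from 0.990 to 0.993 between WT sham arrays, from 0.975 to 0.990 between FSAP-/- sham arrays and from 0.970 to 0.989 between genotypes. The 75th percentile of the signal was 541 to 632 units, and 55.8% to 58.7% of probes were well above background on the sham arrays. All 28 hepatocyte markers were well above background on all 6 arrays.

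Habp2 was measured by 2 probes on chromosome 19 (mm9), at chr19:56394519-56394578 and, under a transcript name that belongs to Habp2, at chr19:56395251-56395310. The second lies past the first, and both hold AATAAA, the letters of the polyadenylation hexamer, which is a description of these letters and not a mapped messenger end. Of the 39429 distinct probes of 60 bases on the array, 12.6% hold that hexamer on the probe's strand and 4.03% on the other. The 30 bases around it are shown for the 3 probes that passed the test, 5′ to 3′ on the probe's strand, with the hexamer in capitals:
Habp2 first probe: agttgttattttAATAAAggcagatgtggg
Habp2 second probe: acctttggccaaaAATAAActttgaaaagc
Sptbn4 probe: gtatgtacctatAATAAAccctttggcttt

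At the first probe the WT sham livers read 5.37, 5.47 and 5.50 and the FSAP-/- sham livers -3.45, -6.74 and -6.72. The groups were far apart, and Habp2 was lower by 11.09 (95% interval -12.58 to -9.59; adjusted p = 6.5e-05), at least 851-fold when dim arrays are set at the lowest signal well above background. Here and below, a fold given as at least allows for dim spots only, not for the spread between mice. FSAP-/- sham 1 was the exception within its group: its spot was well above background, 478-fold below the WT mean but above the other knockouts. Without that array the difference was -12.18. At the second probe the WT livers read -0.03, 0.19 and 0.08 and the knockouts -7.41, -6.50 and -6.25, with no knockout spot well above background. That difference was at least 32.6-fold (adjusted p = 1.7e-06), and there FSAP-/- sham 1 was the lowest of all. Both probes thus went with the genotype labels on all 6 arrays, although the labels do not say whether the probes lie in the removed part. In a fit of the 6 sham arrays alone, with 4 degrees of freedom among samples, the first probe had the same difference at an adjusted p of 0.060.

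**Figure D1:**
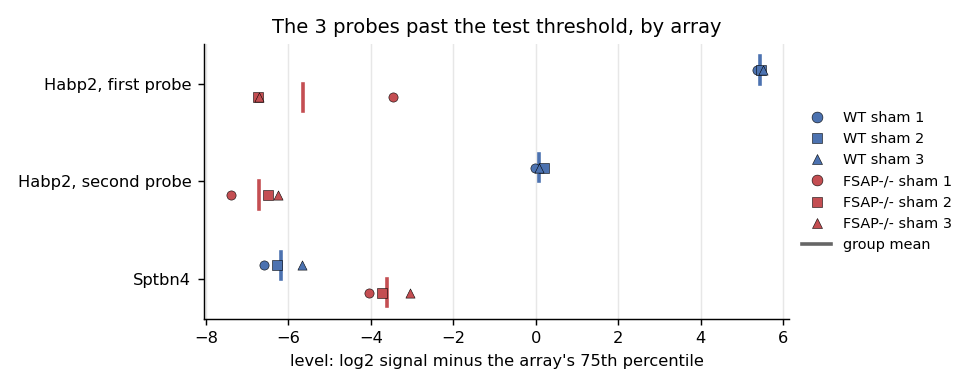
Levels (log2 signal minus the array's 75th percentile) of the 3 probes past the threshold on the 3 WT sham arrays (blue) and the 3 FSAP-/- sham arrays (red), with group means as bars; levels of different probes are not comparable. The groups are apart at all 3 probes, and FSAP-/- sham 1 lies at -3.45 at the first Habp2 probe, above the other knockouts.

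Sptbn4, a beta spectrin best known as a scaffold of the axon's initial segment, was the one other gene called (chr7:28141402-28141461). The WT livers read -6.59, -6.27 and -5.67, none well above background, and the knockouts -4.04, -3.74 and -3.05, all well above it. The groups did not overlap, and the rise was 2.57 (1.88 to 3.26; adjusted p = 0.041), at least 2.63-fold. The call was lost when any array but WT sham 3 was left out (adjusted p 0.061 to 0.20), with normexp background correction, where the difference was 0.70, and with the sham arrays alone (adjusted p = 0.32). In ligated livers, all 6 arrays read between -5.52 and -4.79 whichever the genotype.

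Over the 19531 genes tested, those 3 probes (0.0154%) were all that passed: 1 gene rose (0.00512%) and the 2 Habp2 probes fell (0.0102%). At an unadjusted p under 0.05 there were 1538 genes (7.87%), of which 1058 were higher (5.42% of all genes) and 480 lower (2.46%) without FSAP. The median difference of all genes was 0.04 and the median size of a difference was 0.18. The intervals of 14214 genes (72.8%) lay within 2-fold and those of 7030 (36.0%) within 1.5-fold. Differences of 2-fold or more were measured for 721 genes (3.69%), 392 higher (2.01%) and 329 lower (1.68%). The median half-width of an interval was 0.49, for 1 gene at a time and without adjustment over genes. A call after adjustment needed a larger difference at the same spread. The lack of calls therefore does not show that effects near 1.5-fold were absent.

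The share of bounded genes was higher at brighter probes. Among the 3417 genes whose WT level was -4 or less, 31.0% were bounded within 2-fold, against 88.3% of the 3734 genes between 0 and 2. Of the 677 genes above 6, where many secreted and metabolic genes of hepatocytes lie, 84.2% were bounded. The gene lists below hold 1205 tested genes in 44 lists, and none of these was called by limma's test. At an unadjusted p under 0.05, 27 of the 1205 were higher and 70 lower. Of all genes, 5.42% were higher and 2.46% lower at that p, so the listed genes leaned the other way. The medians of 38 lists lay within 1.5-fold, and 55.5% of the listed genes were bounded, fewer than the 72.8% of all genes.

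The mitochondrial respiratory chain and the ribosome were bounded gene by gene. All 70 tested respiratory chain subunits had intervals within 2-fold and 65 within 1.5-fold, with a median difference of 0.02 and no interval reaching beyond -0.69 or 0.86. Atp5b, the catalytic beta subunit of ATP synthase, read 7.40, 7.51 and 7.43 in WT and 7.56, 7.36 and 7.47 in knockout livers, a difference of 0.02 (-0.27 to 0.31). The groups overlapped. All 57 ribosomal protein genes were bounded within 2-fold and 50 within 1.5-fold, with a median of 0.03. Rpl10, of the large subunit, differed by 0.06 (-0.24 to 0.37). In both lists FSAP-/- sham 1 was the highest array, by 0.17 and 0.24 over the WT mean at the median, and the other knockouts were 0.05 to 0.08 below it.

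Nitrogen metabolism was also bounded more often than all genes. Of 48 urea cycle and amino acid catabolism genes, 40 (83.3%) were bounded, none differed 2-fold and none had an unadjusted p under 0.05. Cps1, which fixes ammonia in the urea cycle, read 5.05, 4.78 and 4.76 in WT and 4.87, 4.81 and 4.81 in knockout livers, a difference of -0.03 (-0.55 to 0.48). Ass1, which joins citrulline to aspartate in the same cycle, differed by -0.10 (-0.62 to 0.42). The widest uncertainty was at Ahcy, which removes S-adenosylhomocysteine, at 0.96 (-0.44 to 2.36), with 1 WT liver at 5.25 beside the knockouts at 5.19 to 5.56 and the other WT livers at 3.93 and 4.16.

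For the proteins hepatocytes send into plasma, FSAP's own setting, list medians lay between 0.05 and 0.11. Of 123 genes in these lists, 83 (67.5%) were bounded, against 72.8% of all genes. Differences of 2-fold or more were measured for 10 of them (3.69% of all genes). For 28 plasma carrier genes the median difference was 0.11, and 24 (85.7%) were bounded. Albumin (Alb) read 9.66, 9.79 and 9.59 in WT and 9.45, 9.87 and 9.88 in knockout livers, which overlap, with a difference of 0.05 (-0.43 to 0.53, a fold between 0.74 and 1.45). Transferrin (Trf) differed by 0.00 (-0.47 to 0.48) and transthyretin (Ttr), the carrier of thyroxine and retinol-binding protein, by 0.27 (-0.30 to 0.83). The exception by size was Serpina6, the corticosteroid-binding globulin, at 5.46, 6.87 and 6.85 in knockouts against 7.27 to 7.65 in WT livers, a difference of -1.08 (-2.44 to 0.28; adjusted p = 0.74), or -0.62 without FSAP-/- sham 1.

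Of 43 genes of coagulation and fibrinolysis, 31 (72.1%) were bounded and the median was 0.05. Factor VII (F7), the zymogen after which FSAP was named, read 3.35, 3.37 and 3.31 in WT and 3.21, 3.48 and 3.50 in knockout livers. The groups overlapped and the difference was 0.05 (-0.36 to 0.46). Prothrombin (F2) differed by 0.02 (-0.30 to 0.35), plasminogen (Plg) by -0.11 (-0.66 to 0.43), the fibrinogen beta chain (Fgb) by -0.06 (-0.80 to 0.68) and kininogen (Kng1) by -0.25 (-0.80 to 0.29). Antithrombin (Serpinc1), an inhibitor of FSAP as of thrombin, differed by -0.12 (-0.49 to 0.26). None of these intervals reached 2-fold. In the list 2 genes were 2-fold or more higher (2.01% of all genes were) and none lower, and 1 of them rested on FSAP-/- sham 1. The larger rise was A2m at 1.48 (-1.30 to 4.26, adjusted p = 0.86), with no WT spot well above background.

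FSAP's substrates, inhibitors and partners as a list had 21 of 30 genes bounded (70.0%), a median of 0.05 and no 2-fold difference. Its extremes were Plau, the urokinase that FSAP activates, and F2r, the thrombin receptor. Plau read -4.23, -4.78 and -4.19 in WT and -5.73, -4.67 and -5.45 in knockout livers, with 2 WT spots and no knockout spot well above background. Between means it was at least 1.42-fold lower, with a fitted difference of -0.89 (unadjusted p = 0.022, adjusted p = 0.51). F2r read -0.31, -0.43 and -0.43 in WT and 1.28, 0.70 and -0.29 in knockout livers, 0.95 higher (0.13 to 1.78; adjusted p = 0.55). FSAP-/- sham 3 lay near the WT livers at F2r, and FSAP-/- sham 2 lay among them at Plau.

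Complement genes were bounded in 22 of 29 cases (75.9%), with C3, the component on which the pathways meet, at 0.03 (-0.50 to 0.56). Of the 29, 3 were 2-fold or more higher (2.01% of all genes were) and none lower. Acute phase genes, whose levels swing with inflammation, were less precise: 13 of 32 were bounded (40.6%), though the median was 0.09. Among these 32, 4 were 2-fold or more lower (1.68% of all genes were), 2 of which rested on FSAP-/- sham 1. Saa1, serum amyloid A, already spanned 3.25 to 5.90 among the WT livers and 4.24 to 6.23 among the knockouts, and differed by 0.76 (-1.28 to 2.80). The metallothionein Mt2 read 7.54, 7.29 and 8.55 in WT and 2.51, 6.90 and 7.12 in knockout livers. Its difference of -2.29 (-4.59 to 0.02) was -0.79 without FSAP-/- sham 1.

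**Figure D2:**
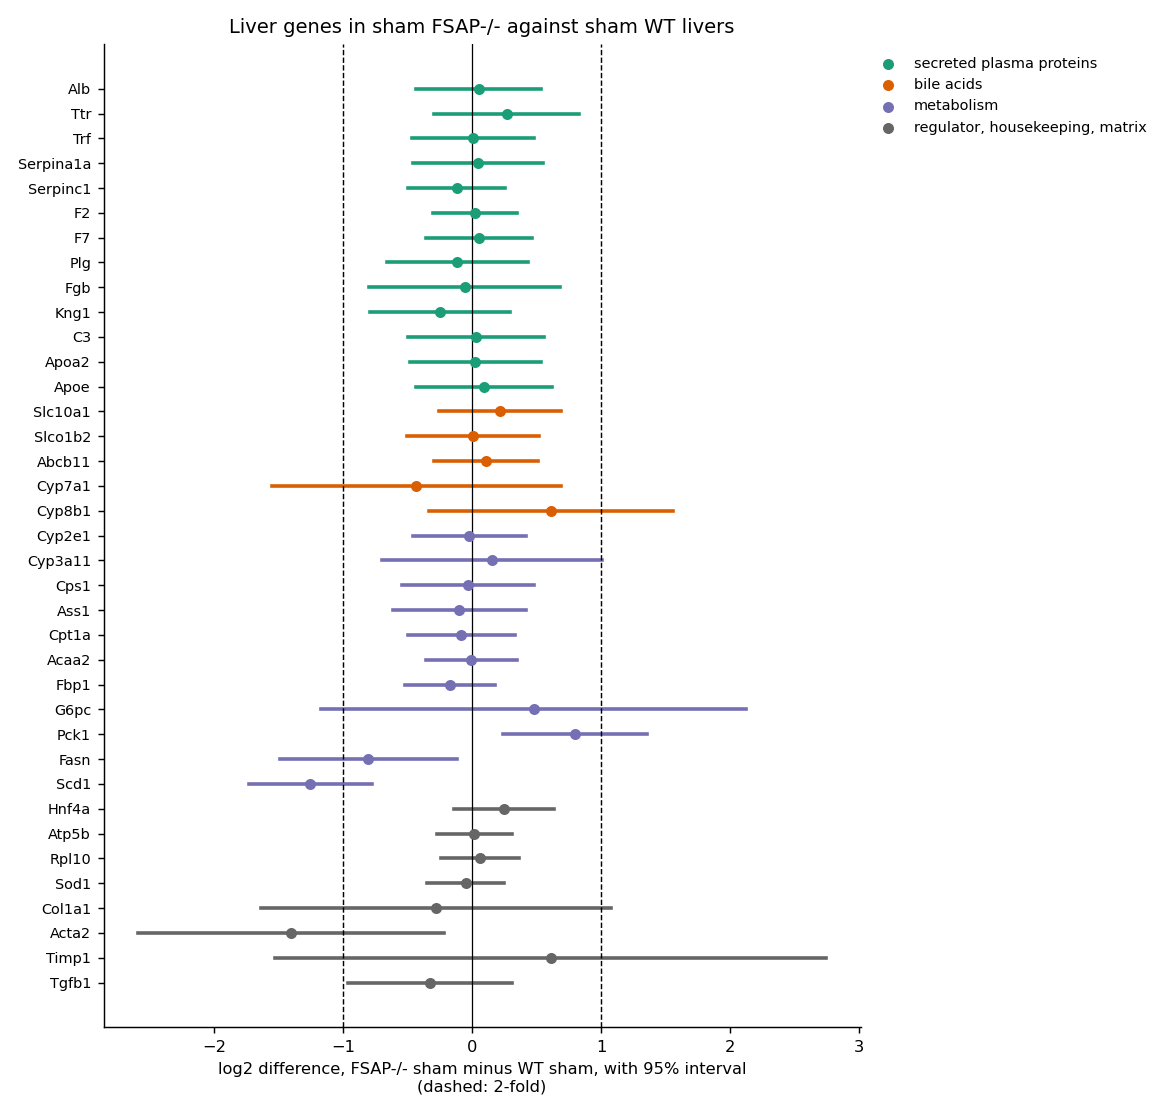
Differences (log2, FSAP-/- sham minus WT sham) of liver genes with 95% intervals from limma's fit over 12 arrays; dashed lines mark 2-fold and colours mark the kind of gene. Intervals of the plasma protein genes shown lie within 2-fold, Scd1 (-1.73 to -0.78) and Fasn (-1.49 to -0.12) lie below 0, and those of Cyp7a1, G6pc, Col1a1 and Timp1 are among those that reach past 2-fold.

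In bile handling, the messengers of the transporters Slc10a1, Abcb11 and Slco1b2 were bounded, and transport itself was not measured. Slc10a1 (NTCP), which takes up bile salts from blood, read 7.68, 7.97 and 7.52 in WT and 8.05, 7.66 and 8.11 in knockout livers, a difference of 0.22 (-0.26 to 0.69). Abcb11 (BSEP), which pumps them into the canaliculus, differed by 0.11 (-0.29 to 0.51), and Slco1b2, an organic anion carrier, by 0.01 (-0.50 to 0.52). Of 24 genes of bile acid synthesis and sensing, 16 (66.7%) were bounded with a median of 0.03. Cyp7a1, the rate-limiting enzyme of the classical route, varied within each group, from 2.65 to 4.41 in WT and from 2.00 to 3.85 in knockout livers, so its difference of -0.43 had an interval of -1.56 to 0.69. Cyp8b1, which makes cholic acid, differed by 0.61 (-0.33 to 1.56). These data do not bound those enzymes within 2-fold.

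Of the 23 bile and organic anion transporters, 11 (47.8%) were bounded, 1 was 2-fold or more higher (2.01% of all genes were) and 2 were lower (1.68%). Abcc4 (MRP4), an exporter on the blood side of the hepatocyte, read -1.25, -0.84 and -0.65 in WT and -3.56, -2.52 and -1.87 in knockout livers. No knockout overlapped the WT livers, and the difference was -1.74 (-2.76 to -0.72; unadjusted p = 0.0032, adjusted p = 0.29). It was -1.29 without FSAP-/- sham 1.

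Carbohydrate metabolism had 26 of 38 genes bounded (68.4%) and a median of -0.07. Fbp1, fructose bisphosphatase, differed by -0.17 (-0.52 to 0.18). Pck1, which commits carbon to gluconeogenesis, read 6.41, 6.41 and 6.69 in WT and 7.85, 6.97 and 7.09 in knockout livers. All knockouts were above all WT livers, by 0.80 (0.24 to 1.36; unadjusted p = 0.0094, adjusted p = 0.37), or 0.52 without FSAP-/- sham 1. G6pc, the phosphatase that releases glucose, was too variable to bound, at 0.48 (-1.17 to 2.13).

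Fatty acid oxidation and ketogenesis had 26 of 35 genes bounded (74.3%). Acaa2, the mitochondrial thiolase, differed by -0.01 (-0.36 to 0.35) and Cpt1a, the gate of mitochondrial import, by -0.08 (-0.50 to 0.33). The list's median was -0.18, with 28 of its genes lower in knockouts. At an unadjusted p under 0.05, 4 of the 35 were lower and none higher, where 2.46% of all genes were lower and 5.42% higher. Groups did not overlap at 12 of the 35 (17.0% of all genes). Ppara, the nuclear receptor that drives these genes, read 4.80, 5.05 and 5.24 in WT and 4.31, 4.57 and 4.55 in knockout livers, -0.56 (-1.09 to -0.02; adjusted p = 0.61).

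Lipogenesis held larger differences, none called. Of 32 genes of lipogenesis and triglyceride storage, 17 (53.1%) were bounded, 23 were lower in knockouts and 5 had an unadjusted p under 0.05, all lower, where 2.46% of all genes were lower at that p. Scd1, the desaturase that makes oleate, read 6.58, 6.49 and 6.43 in WT and 5.18, 5.60 and 4.95 in knockout livers. The groups were apart by more than either spread, and the difference was -1.26 (-1.73 to -0.78; unadjusted p = 0.00013, adjusted p = 0.24), -1.23 without FSAP-/- sham 1. Pnpla3, a lipid droplet protein, read -2.02, -2.13 and -3.22 in WT and -5.70, -4.42 and -3.71 in knockout livers, -2.15 (-3.23 to -1.08; adjusted p = 0.29). Fasn, fatty acid synthase, read 1.81, 1.82 and 1.75 in WT and 0.69, 0.70 and 1.58 in knockout livers, -0.81 (-1.49 to -0.12; adjusted p = 0.54), with FSAP-/- sham 3 close to WT. Dgat2, which makes triglyceride, differed by 0.04 (-0.42 to 0.50). Elovl3, an elongase of very long fatty acids that is also on the list of male-biased genes, went the other way by the largest difference of the list, at -3.30, -3.67 and -3.19 in WT and 1.96, -2.71 and -2.50 in knockout livers. Its difference was 2.30 (-0.29 to 4.89; adjusted p = 0.70), and 0.78 without FSAP-/- sham 1. With limma's array weights, which are lower for arrays that scatter more around their group's mean, 335 of 19531 genes (1.72%) passed the threshold. FSAP-/- sham 1 had a weight of 0.37 in that fit. Among the 10 listed genes that passed were Scd1 (-1.37, adjusted p = 0.012) and Pnpla3 (-1.78, adjusted p = 0.047). Gzmb (adjusted p = 0.041) and Cdh1 (adjusted p = 0.027), described further on, were also among them.

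Apolipoproteins had 19 of 29 genes bounded (65.5%) and a median of 0.01. Apoe differed by 0.09 (-0.44 to 0.62) and Apoa2 by 0.03 (-0.48 to 0.53), while Apoa1 read 6.76, 6.96 and 6.26 in WT and 7.47, 7.28 and 7.05 in knockout livers, 0.61 higher (0.02 to 1.19; adjusted p = 0.61). Vldlr, the VLDL receptor, had its largest gap on 1 array: -5.15, 0.25 and 0.44 in knockouts against 1.26 to 1.61 in WT livers, a difference of -2.96 that was -1.13 without FSAP-/- sham 1. In cholesterol synthesis 7 of 24 genes were bounded (29.2%), with FSAP-/- sham 3 the high array, 0.60 above the WT mean at the list's median. With the sham arrays alone in the fit, 21 of the 24 were bounded.

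Xenobiotic metabolism was also bounded less often than all genes. Of 47 cytochrome P450 genes, 18 (38.3%) were bounded, with a median of -0.10. Differences of 2-fold or more were measured for 11 (3.69% of all genes), 6 of which rested on FSAP-/- sham 1. Cyp2e1, the ethanol-inducible enzyme, differed by -0.02 (-0.46 to 0.42), and Cyp3a11, the main target of the xenobiotic receptor PXR, by 0.16 (-0.70 to 1.01). Of 60 phase II enzymes, 27 were bounded and the median was -0.23, or -0.15 without FSAP-/- sham 1. Among them 11 were 2-fold or more lower (1.68% of all genes were) and 2 higher (2.01%). Of these differences 2 rested on 1 array. At an unadjusted p under 0.05, 5 were lower (2.46% of all genes were) and none higher. Groups did not overlap at 20 of the 60 (17.0% of all genes). Gsta1, a glutathione transferase, read 2.02, 1.96 and 2.54 in WT and 2.17, 0.11 and 0.04 in knockout livers, a difference of -1.40 (-3.55 to 0.75) in which FSAP-/- sham 1 lay with the WT livers.

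Lists of regulators and stress responses had medians near 0. Of 27 liver-enriched transcription factors, 19 (70.4%) were bounded with a median of 0.03, and Hnf4a, the master regulator of hepatocyte genes, differed by 0.25 (-0.14 to 0.63). Of 23 NRF2 targets 19 were bounded (82.6%), as were 24 of 32 ER stress genes and 16 of 23 p53 targets (69.6%). At an unadjusted p under 0.05, 4 of the 27 factors, 2 of the NRF2 targets and 3 of the p53 targets were lower and none was higher, where 2.46% of all genes were lower. The 4 factors included Ppara, and also Foxa2 (-0.46), Nr1i3 (-0.54) and Onecut1 (-0.98), with adjusted p-values from limma of 0.52 to 0.61. Among NRF2 targets 2 were 2-fold or more lower (1.68% of all genes were). Gdf15, a stress hormone counted with the p53 targets, read -0.26, 0.48 and -0.23 in WT and -1.41, -1.09 and -0.63 in knockout livers, -1.04 (-1.59 to -0.48; adjusted p = 0.29). Circadian clock genes had a median of -0.11, with 8 of 20 bounded (40%). Their bright output gene Dbp differed by -0.18 (-1.65 to 1.29) and Tef by -0.12 (-0.94 to 0.69).

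**Figure D3:**
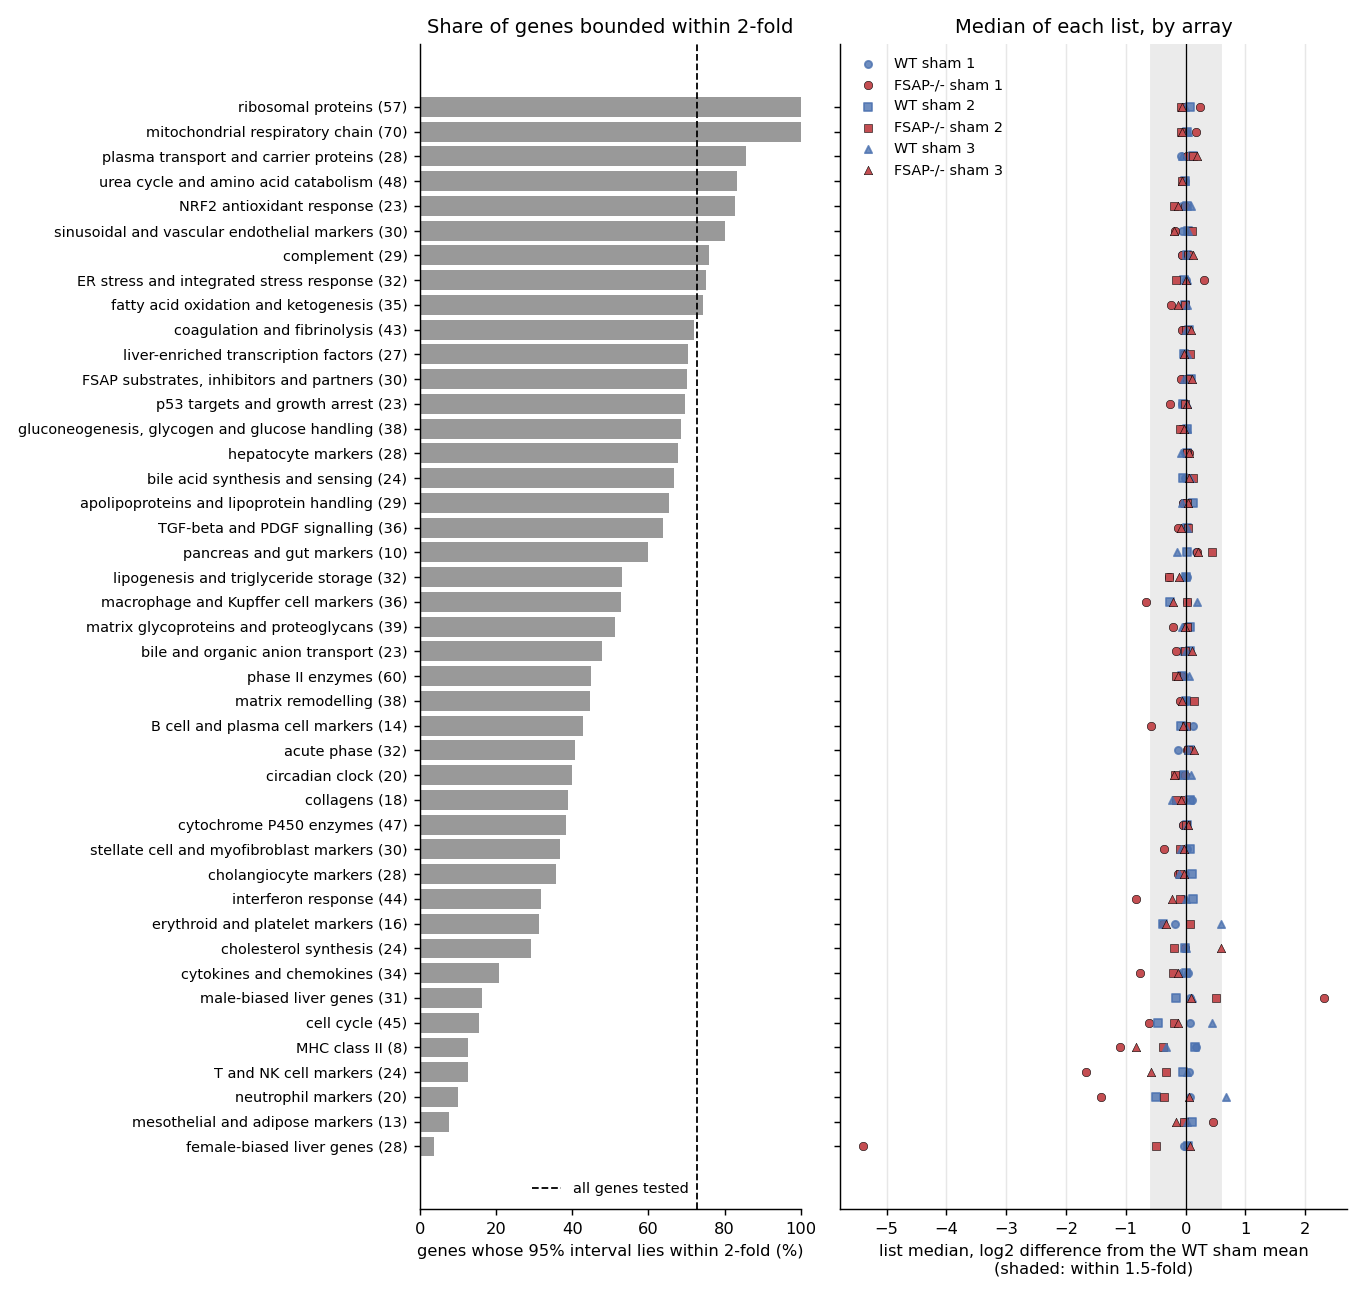
Left, the share of each list's genes (number tested in brackets) whose 95% interval lies within 2-fold, with the 72.8% of all genes as a dashed line. Right, the list's median difference from the WT sham mean on each array, where FSAP-/- sham 1 (red circles) lies apart for sex-biased, T and NK cell, neutrophil and interferon genes and the 3 knockouts lie below 0 for MHC class II.

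Genes of fibrosis, the study's subject, were less tightly bounded. Collagens had a median of -0.09 with 7 of 18 genes bounded (38.9%), and TGF-beta and PDGF signalling a median of -0.03 with 23 of 36 bounded (63.9%). Col1a1, of fibrillar collagen type I, read -1.57, -1.64 and -2.04 in WT and -1.28, -2.35 and -2.47 in knockout livers, -0.28 (-1.64 to 1.07). Tgfb1 differed by -0.33 (-0.96 to 0.31), and Timp1, the metalloproteinase inhibitor, by 0.61 (-1.53 to 2.75). Tgfbr2, the type II TGF-beta receptor, read 0.95, 1.08 and 1.34 in WT and -0.31, 0.35 and 0.37 in knockout livers, -0.99 (-1.73 to -0.25; adjusted p = 0.43). The fit over the sham arrays alone bounded 12 of the 18 collagens and 27 of 38 matrix remodelling genes, against 17 of 38 with all arrays.

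Acta2 and Cnn1, contractile genes of stellate and smooth muscle cells, were lower on all 3 knockout arrays without a call. Acta2, smooth muscle actin, read -1.58, -0.36 and -1.29 in WT and -2.50, -2.24 and -2.71 in knockout livers, -1.41 (-2.59 to -0.22; adjusted p = 0.53). Cnn1, calponin, read -3.88, -2.18 and -3.01 in WT and -5.83, -4.80 and -4.89 in knockouts, none of the last well above background. Between means it was at least 3.79-fold lower, and its interval was -3.76 to -0.55 (adjusted p = 0.43). Neither rested on 1 array, at -1.40 and -1.83 without FSAP-/- sham 1. The list of 30 stellate cell and myofibroblast markers had a median of -0.13 with 11 bounded (36.7%), and 18 with the sham arrays alone. At an unadjusted p under 0.05, 4 of them were lower and none higher, where 2.46% of all genes were lower and 5.42% higher. Vcl, vinculin, differed the other way by 0.38 (-0.09 to 0.85), and the list's median was -0.35, -0.09 and -0.03 on the knockout arrays.

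Immune genes were mostly lower without FSAP and poorly bounded. All 8 tested MHC class II genes were lower, with a median of -0.90 where that of all genes was 0.04, and the list's median on the knockout arrays was -1.10, -0.38 and -0.83 from the WT mean. WT sham 3 was lowest among WT livers, at -0.33. Cd74, the invariant chain, read 3.27, 3.20 and 2.76 in WT and 1.46, 2.50 and 2.05 in knockout livers, -1.07 (-2.12 to -0.03; adjusted p = 0.61). H2-Eb1 (-0.95, -2.04 to 0.13) and H2-Ab1 (-0.93, -1.97 to 0.10), chains of the peptide-binding dimer, were also lower on every knockout array. Without FSAP-/- sham 1 the list's median was -0.79, with normexp it was -0.50, and with slide as a fixed block -0.21.

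Of 24 T and NK cell genes, 19 were lower and 15 had groups that did not overlap (17.0% of all genes did not). Another count was 7 with an unadjusted p under 0.05, all lower (2.46% of all genes were). The list's median was -0.86, and it was -1.67 on FSAP-/- sham 1, -0.32 on FSAP-/- sham 2 and -0.58 on FSAP-/- sham 3. It was -0.46 without FSAP-/- sham 1, -0.26 with normexp and -0.15 with slide as a fixed block. Gzmb, the granzyme of cytotoxic cells, read -2.50, -3.43 and -3.07 in WT and -5.51, -4.86 and -5.50 in knockout livers, none of the knockouts well above background. Between means it was at least 3.85-fold lower, and its interval was -3.77 to -0.81 (adjusted p = 0.32). Cd3e, of the T cell receptor complex, went the other way, at 1.12, 1.46 and 1.25 in WT and 1.66, 1.68 and 1.68 in knockout livers, 0.39 (-0.15 to 0.93). Ccl21a, a chemokine of lymphatic vessels, read -0.12, -0.50 and -0.83 in WT and -2.07, -1.95 and -2.76 in knockouts, -1.78 (-3.23 to -0.32; adjusted p = 0.50).

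The medians of other immune lists were nearer 0 without FSAP-/- sham 1. Interferon response genes had a median of -0.42 with it and -0.17 without it, macrophage and Kupffer cell markers -0.35 and -0.13, cytokines and chemokines -0.31 and -0.15, and neutrophil markers -0.68 and -0.18. Of 34 cytokines and chemokines, 8 were lower and 1 higher at an unadjusted p under 0.05, against 2.46% and 5.42% of all genes. Groups did not overlap at 11 (17.0% of all genes). None of the 5 that were 2-fold or more lower (1.68% of all genes were) rested on 1 array. Of 36 macrophage and Kupffer cell markers, 4 were lower at an unadjusted p under 0.05 (2.46% of all genes were). Neither of the 2 with 2-fold differences (3.69% of all genes had them) rested on 1 array. Itgam, an integrin of myeloid cells, read 2.35, 2.90 and 2.24 in WT and 0.38, 1.73 and 1.68 in knockout livers, -1.23 (-2.19 to -0.28; adjusted p = 0.46). The Kupffer cell gene Cd5l differed by -0.50 (-1.08 to 0.08). Endothelial markers were closer, with 24 of 30 bounded (80.0%), Kdr at 0.26 (-0.26 to 0.79) and Vwf, von Willebrand factor, at -0.67 (-1.24 to -0.11; adjusted p = 0.53). Cholangiocyte markers had a median of 0.01, with 10 of 28 bounded (35.7%), 14 lower and 14 higher. Of these, 3 were 2-fold or more lower (1.68% of all genes were) and 1 was higher (2.01%). The gene 2-fold higher was Cdh1, E-cadherin, at -1.70, -1.40 and -1.94 in WT and 0.39, -0.85 and -0.59 in knockout livers. It was 1.33 higher (0.72 to 1.95, unadjusted p = 0.00062, adjusted p = 0.25). Haemoglobin genes, a gauge of blood left in the tissue, were near the WT level, and Hba-a2 differed by -0.02 (-0.70 to 0.66). B cell and plasma cell markers had a median of -0.21, -0.03 without FSAP-/- sham 1. Cell cycle genes, at -0.36 with 7 of 45 bounded, spanned -0.45 to 0.44 among the WT livers, so the knockouts at -0.62, -0.19 and -0.13 lay partly in that range. Of these 45 genes, 9 were 2-fold or more lower (1.68% of all genes were) and none of the 9 rested on 1 array. At an unadjusted p under 0.05, 1 was lower and 2 were higher, where 2.46% of all genes were lower and 5.42% higher. Mki67, the proliferation antigen Ki-67, read -1.55, -2.45 and -1.20 in WT and -4.07, -3.17 and -3.04 in knockout livers, which did not overlap, and differed by -1.69 (-3.29 to -0.10; adjusted p = 0.60). Markers of pancreas and gut (0.19, 6 of 10 bounded) and of mesothelium and fat (-0.03, 1 of 13 bounded) had no measured 2-fold difference. Intervals of most of the latter still allow a 2-fold change.

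**Figure D4:**
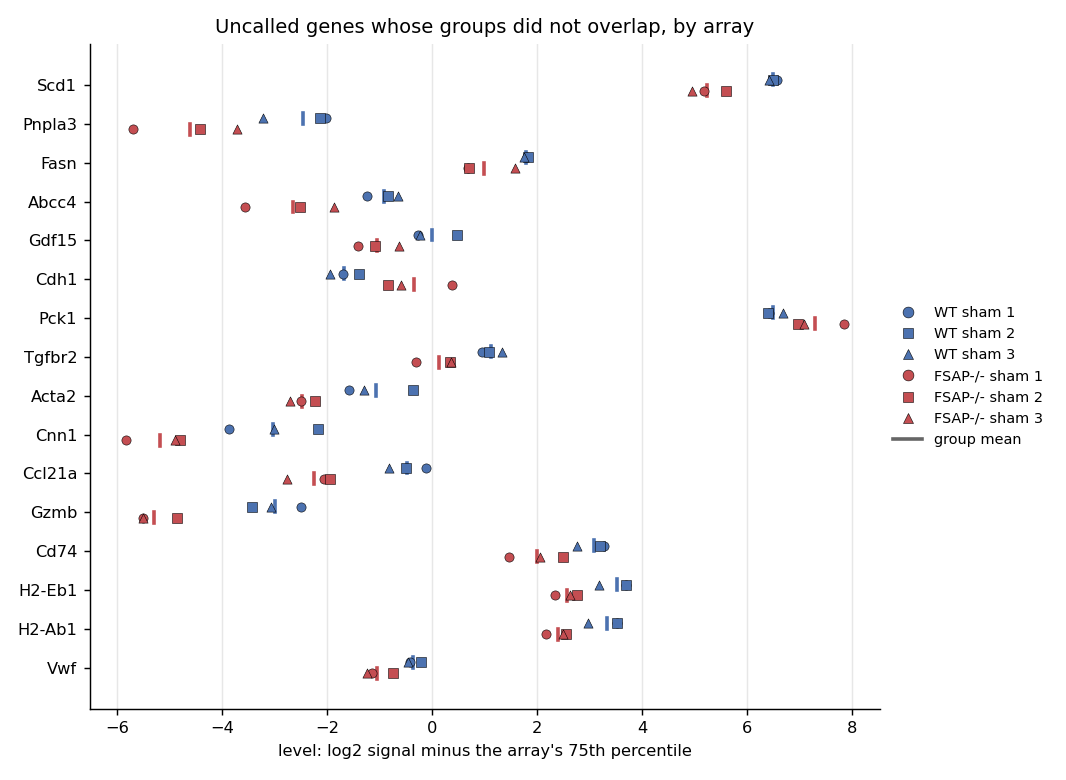
Levels (log2 signal minus the array's 75th percentile) on the 3 WT sham (blue) and 3 FSAP-/- sham (red) arrays for 16 uncalled genes whose groups did not overlap, with group means as bars; levels of different genes are not comparable. Groups did not overlap at 17.0% of all genes tested. Scd1 and Gzmb show gaps larger than either group's range, while at Fasn 1 knockout lies close to the WT livers.

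A difference was taken to rest on 1 array where it was 2-fold or more and leaving that array out brought it under 1.5-fold or turned its sign. By that rule 180 of the 721 differences of 2-fold or more rested on at least 1 array and 541 on none. FSAP-/- sham 1 carried 141 of them (19.6% of the 721), 42 higher and 99 lower, against 15 for FSAP-/- sham 2, 10 for FSAP-/- sham 3 and 8, 9 and 12 for the WT arrays. Leaving FSAP-/- sham 1 out brought the number of differences of 2-fold or more from 721 to 553, and leaving out FSAP-/- sham 2 or 3 raised it to 996 or 1018.

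Of those 141 genes, 34 were in a list here, and 18 of these were on the lists of sex-linked genes and of genes that mouse liver expresses by sex, a pattern kept by growth hormone. The 28 tested female-biased genes had a median of -1.90, and 17 of them were 2-fold or more lower (1.68% of all genes were). On the single arrays the list's median was -5.39 on FSAP-/- sham 1, -0.49 on FSAP-/- sham 2 and 0.07 on FSAP-/- sham 3, and without FSAP-/- sham 1 the median difference was -0.23. Cyp2b13, a female-biased cytochrome P450, read 4.17, 5.51 and 4.47 in WT and -6.01, 5.09 and 5.01 in knockout livers, so its -3.35 became 0.34 without that array. Hao2, a hydroxyacid oxidase, read 2.70, 2.29 and 2.21 in WT and -7.12, 1.39 and 2.33 in knockouts. Cyp3a44, Slc22a26 and Slc22a27 had the same shape, with differences of -3.35, -3.30 and -3.21 that were -0.30, -0.01 and -0.25 without the array. Sult3a1, a sulfotransferase, fell outside the rule by little, at -4.49 with the array and -0.65 without it.

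The 31 male-biased genes mirrored them, with a median of 1.14 and 18 that were 2-fold or more higher (2.01% of all genes were). The list's median was 2.32 on FSAP-/- sham 1, 0.50 on FSAP-/- sham 2 and 0.09 on FSAP-/- sham 3, and the difference was 0.35 without the first. FSAP-/- sham 2, which had Xist and no Y-linked signal, was raised at several of them. Hsd3b5, a steroid dehydrogenase, read -1.10, -3.19 and -2.76 in WT and 6.38, 2.05 and -1.84 in knockout livers. Slco1a1, an organic anion carrier, read 0.27, -1.45 and -0.49 in WT and 3.13, 2.15 and -0.16 in knockouts. Nat8 (-1.42, -0.78 and -0.72 in WT; 4.16, 1.13 and -0.86 in knockouts) and Cyp4a12b (-5.27, -4.94 and -4.84; 5.18, -2.53 and -5.04) had the same order, and FSAP-/- sham 3 lay within the range of the WT livers at all 4 genes. Without FSAP-/- sham 1 these 4 differences were 2.45, 1.54, 1.11 and 1.24.

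Genes of the functions above also rested on FSAP-/- sham 1. Cyp7b1, of the alternative route of bile acid synthesis, read 7.02 on it and 2.48 to 3.37 on the other 5, so that its 1.51 became 0.24. C6, of the complement attack complex, read 3.24 on it and -1.44 to -0.24 on the others, and its 1.55 became 0.19. Cyp4a10, the fatty acid hydroxylase, read 0.78 against 3.44 to 4.60, and its -1.48 became -0.40. Asns, asparagine synthetase of the integrated stress response, read -1.65 against -4.31 to -3.14, and its 1.06 became 0.40. Gbp2, an interferon-induced GTPase, read -2.61 against -0.36 to 0.52, and its -1.02 became -0.22. Of the 3 ligated FSAP-/- arrays, 2 also had Y-linked signal, and that spread entered the intervals of sex-biased genes.

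**Figure D5:**
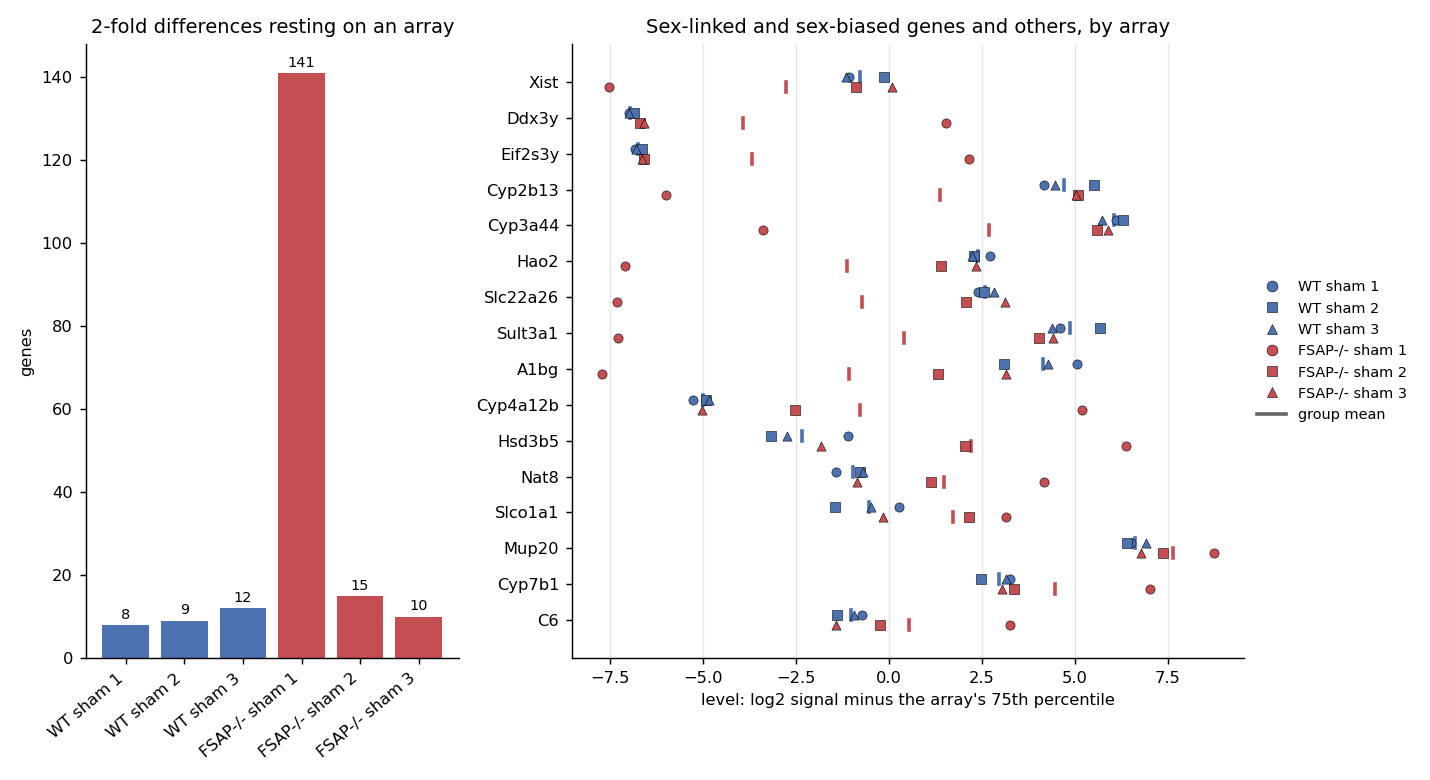
Left, the number of differences of 2-fold or more that rest on each sham array, 141 of them on FSAP-/- sham 1. Right, levels (log2 signal minus the array's 75th percentile) of sex-linked, sex-biased and other genes on the 3 WT (blue) and 3 FSAP-/- (red) sham arrays, with group means as bars. FSAP-/- sham 1 (red circle) is far from the other 5 arrays at most of these genes. FSAP-/- sham 2 (red square) lies between at Hsd3b5, Nat8 and Cyp4a12b, and at Slco1a1 it lies nearer to FSAP-/- sham 1 than to the WT livers.

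Genes near the targeted locus were also examined, since after few generations of backcrossing the deletion and the chromosome around it cannot be told apart. Of 654 genes tested on chromosome 19, 60 (9.17%) had an unadjusted p under 0.05, against 7.87% of all genes, and none but the 2 Habp2 probes was called. Of the other chromosomes, 7 (9.51%), 14 (9.43%) and Y (3 of 9 genes) had higher shares, so the excess was not particular to chromosome 19. From the first Habp2 probe to 10 Mb beyond it, 9 of 42 genes had such a p (21.4%), 2 of the 9 being the Habp2 probes themselves. In the 10 Mb before it 7 of 58 did (12.1%), and from 20 to 10 Mb before it 17 of 137 did (12.4%). Scd1 lies at -11.9 Mb from the probe, and its neighbours Scd3 and Sec31b, chosen here after their values were seen, differed by -1.41 (-2.12 to -0.70) and -0.96 (-1.40 to -0.51). Cyp2c23, a cytochrome P450 at -12.3 Mb and chosen the same way, read 2.64, 2.49 and 2.52 in WT and 4.28, 4.63 and 4.52 in knockout livers, 1.93 higher (0.36 to 3.49; adjusted p = 0.50). At all 4 genes the groups did not overlap. Elovl3 (chr19:46209762-46209821) and Acta2 (chr19:34316060-34316119), described above, also lie on this chromosome. FSAP loss and the chromosome segment cannot be told apart here.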

How the data were processed

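Total RNA (RNA integrity number at least 7.2, 100 ng per array) was labelled with Cy3 and hybridised to 1-colour Agilent mouse arrays, per the labels' protocols. Spot intensities were extracted and background-corrected (gProcessedSignal) with Agilent Feature Extraction 10.5.1.1, protocol GE1_105_Jan09, build mm9, per the file headers. The log2 values of the series matrix were processed by the authors, by a method not given in the sources used here, and served as an alternative. Outlier and control spots were left out, log2 intensity minus each array's 75th percentile was averaged per probe, and the brightest probe stood for a gene. A gene was tested where its probe passed Agilent's well-above-background call on 3 or more arrays of 12 (19531 of 31870). With that filter on the 6 sham arrays alone, 17928 genes were tested and 78.2% of them were bounded within 2-fold. Of 33063 probes with RefSeq accessions, 26412 matched the reference table of gene names.

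Means of the 4 groups were fitted with limma 3.58.1 in R 4.3.3 on all 12 arrays (8 residual and 2.69 prior degrees of freedom), and p-values were adjusted over all genes. With 3 mice a group an exact permutation test of 1 value cannot give a p below 0.10, so none was used. The number of arrays limits the precision.

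The genes, lists and rules were chosen with earlier results of these data known. Named were Habp2, every called gene, the 3 brightest members and the largest rise and fall of each list, 5 genes each way that rested most on 1 array, and a fixed set of liver genes; some genes the rule names are not reported here. A mean of probes, scalings, filters, background correction, array weights, slide blocks and each array left out were tried.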

Additional observations from a re-analysis of the deposited data

Results flagged for a closer look

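Sema4d, a semaphorin of lymphocytes, and LOC100041034, named from the array only, had genotype differences that differed between sham and ligated livers by limma's interaction term. For Sema4d (chr13:51796617-51796676) the sham livers read -3.50, -4.20 and -3.89 in WT and -5.61, -4.89 and -5.68 in FSAP-/- mice. No sham knockout spot was well above background, so the sham livers were at least 2.12-fold lower (adjusted p = 0.19). The fitted difference was -1.53 in sham livers (SE 0.23) and 1.55 in ligated livers, and the fitted change between them, 3.08 (SE 0.33; adjusted p = 0.024), rests on those dim spots. For LOC100041034 the difference was -0.48 in sham and 1.30 in ligated livers, a change of 1.78 (SE 0.20; adjusted p = 0.024).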

How the results depend on the processing

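The fall of Habp2 was called under every alternative run except the fit of the 6 sham arrays alone, where it stayed at -11.09 with an adjusted p of 0.060 and the second Habp2 probe was the 1 gene called. Its range was -12.18 to -8.15, the last with normexp background correction. The number of called genes was 2 or 3 in the other fits, and 335 (288 higher) with array weights, where FSAP-/- sham 1 had a weight of 0.37. Sptbn4 missed the threshold under 12 of 18 alternatives, at adjusted p from 0.061 to 0.44, kept its sign, and was called with the array median, the stricter filter, the mean of probes, array weights, a replicate block and without WT sham 3. Genes bounded within 2-fold numbered 13788 to 20725 with other processing and slide as a random block, and 12789 to 13776 with an array left out. With slide as a fixed block they fell to 3741. That fit reaches the comparison through FSAP-/- sham 2 alone of the sham knockouts, and the standard error of Sptbn4 was 0.60 in it and 0.31 in the main fit. Differences resting on 1 array numbered 47 with normexp and 389 without a filter on dim probes, which tests 31870 genes. The medians of 29 to 43 lists lay within 1.5-fold. With slide as a fixed block signs turned for Acsm2 (-0.038), Asns (-0.74), Cd74 (0.29), Cyp2b13 (1.11), Cyp3a44 (1.14), Cyp4a10 (1.53), Cyp7b1 (-0.53), Gbp2 (0.069), H2-Oa (1.20), Itgam (0.051), Lyve1 (-0.85), Mup20 (-0.92) and Xist (0.72). Obp2a turned to -0.071 with array weights. With an array left out, Cyp2b13 ranged from -5.21 to 0.34, Obp2a from -0.37 to 2.99 and Xist from -3.42 to 0.37, the reversed ends being without FSAP-/- sham 1. A replicate block, by the number in the titles, gave 3 calls and 14316 bounded genes; same-numbered sham mice had deviations correlating between -0.0064 and 0.0076, so the mice share only a number. Dim probes limit the bounds: 31.0% of genes at or under a level of -4 were bounded within 2-fold.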
